A study of Mus musculus with 4 samples.

Results

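The Alb-Afp locus is the stretch of mouse chromosome 5 from 90.7 to 91.2 Mb (mm9) that holds the genes of albumin and alpha-fetoprotein, and 43 of the 170305 probe positions of the array lie in it. The window and its central probe were chosen by the tumour over reference log2 ratios of these same arrays, so those ratios are given as a description and without a test. The arrays measured DNA copy number by comparative genomic hybridisation, and each of the 4 liver tumours came from a mouse of its own. Tumour DNA (Cy5, red) was hybridised together with reference DNA (Cy3, green) on 1 array per tumour, always in that dye orientation, and a positive log2 ratio means more tumour than reference DNA.

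The mice, untreated and of the C57BL/6J strain, had lost Trp53, the gene of the p53 tumour suppressor, specifically in the liver, and their tumours are numbered 1 to 4. Both channels are labelled Trp53-/- and male, and ages are not given in the sources used here. According to the design text, the reference was spleen DNA pooled from 3 littermates of matching sex. The labelling protocol instead calls it liver. The Cre line that removed Trp53, the promoter that drives it and the positions of the Afp enhancers are not given in the sources used here, so no probe was set against them. Genomic DNA carries no expression of marker genes by which the tissue label could be checked. In bulk DNA, more copies per cell and a larger share of cells with extra copies cannot be told apart. Tumour 1 went against its label: its mean log2 ratio was 0.81 over X and -3.03 over Y, against 0.18 and -1.12 in tumour 2, 0.04 and -0.53 in tumour 3 and -0.05 and -0.43 in tumour 4. Most mean ratios of the window's probes, and those of the regulator genes Zhx2 and Foxa1, are therefore also given without tumour 1. Tumours 1 and 4 shared a slide, and the derivative spread of tumour 2 (0.31, against 0.16 to 0.25 in the others) carried the scanner software's mark for values out of range.

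Albumin is the main protein of blood plasma and is made by hepatocytes throughout adult life. Alpha-fetoprotein is its fetal counterpart: Afp is active in fetal liver and yolk sac, is shut down after birth and is often switched on again in liver tumours, where its product serves as a blood marker. The genes lie next to each other in the same orientation, and enhancers in the interval between them act on Afp. Albumin regulatory sequences, in some transgenes joined to Afp enhancers, are widely used to drive Cre recombinase in hepatocytes, and p53 is known as a repressor of Afp.

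The sequences shown first are those of the central probe, which carries the largest ratio of the locus, and of the Alb and Afp probes on both sides of it, since these are the pieces of DNA that were measured. They are given as the array files hold them, and their genome strand was not checked. The probes lie on chromosome 5 of mm9. The Alb probes lie at 90890293 to 90890352 and 90904240 to 90904299, the central probe, which carries no gene name, at 90915155 to 90915214, and the Afp probes at 90923724 to 90923783 and 90929463 to 90929522. Capitals mark matches, on either strand, to short letter patterns of factors that act on Alb and Afp or on many promoters.
First Alb probe: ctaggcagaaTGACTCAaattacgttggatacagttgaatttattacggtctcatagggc
Second Alb probe: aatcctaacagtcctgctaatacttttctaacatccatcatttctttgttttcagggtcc
Central probe: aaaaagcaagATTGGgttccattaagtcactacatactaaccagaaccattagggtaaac
First Afp probe: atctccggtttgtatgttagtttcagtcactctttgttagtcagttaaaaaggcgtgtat
Second Afp probe: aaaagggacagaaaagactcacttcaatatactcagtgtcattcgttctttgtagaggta
The half-site of HNF1 was searched as GTTAAT, FOXA sites were searched as TGTTTAC and as the variant TGTTTGC, and nuclear receptor half-sites as AGGTCA. The other patterns were the CCAAT box, the AP-1 site TGANTCA, the TATA box as TATAAA and the C/EBP site as TTGCNNAA. The central probe held CCAAT on its reverse strand, as did 12.2% of the 162933 probes of 60 bases when both strands are searched. The first Alb probe held TGANTCA, found in 2.75% of the probes, and the other 3 held none of the patterns. A match describes the letters and does not show a bound site. No stretch of 16 bases of the central probe, on either strand, recurred in any of the other 170304 probes or in any of 32851 RefSeq promoter windows. A whole-genome search was not made.

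The promoters of the 2 genes, from 250 bases before to 50 bases after the start, are shown because the central probe lies between the genes. They are taken from RefSeq on GRCm38.p6, another build than that of the array, on the plus strand, at chr5:90460620-90460919 for Alb and chr5:90490464-90490763 for Afp. Capitals again mark the patterns.
Alb promoter: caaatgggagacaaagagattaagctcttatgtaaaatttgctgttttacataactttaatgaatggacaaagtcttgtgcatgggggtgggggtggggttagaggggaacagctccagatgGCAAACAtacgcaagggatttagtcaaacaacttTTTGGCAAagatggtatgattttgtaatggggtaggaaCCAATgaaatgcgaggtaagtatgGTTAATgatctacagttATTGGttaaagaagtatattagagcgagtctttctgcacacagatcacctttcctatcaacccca
Afp promoter: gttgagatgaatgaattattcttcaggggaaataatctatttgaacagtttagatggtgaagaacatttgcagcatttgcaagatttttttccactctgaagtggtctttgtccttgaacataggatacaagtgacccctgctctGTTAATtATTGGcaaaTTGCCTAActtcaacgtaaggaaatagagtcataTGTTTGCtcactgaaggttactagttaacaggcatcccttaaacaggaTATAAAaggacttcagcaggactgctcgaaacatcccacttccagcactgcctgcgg
Both held GTTAAT once, as did 7.10% of 32841 promoter windows of this length, TGTTTGC once (5.07%) and TTGCNNAA once (10.8%). CCAAT occurred 2 times in the Alb promoter and 1 time in that of Afp (37.4% of windows held it), and only the Afp window had TATAAA (13.6%). No probe of the 43 shared 16 bases with either promoter, so neither promoter was itself measured. The first Afm probe, at 90947969 to 90948028, shared 56 bases with the Afm promoter window (bases 245 to 300 of its 300), and is the 1 probe of the 43 that matched an albumin-family promoter searched.

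The central probe stood far above its surroundings in every tumour. Its log2 ratio was 1.87, 1.73, 1.44 and 1.54 in tumours 1 to 4. The scanner software gave these single spots errors of 0.27, 0.26, 0.24 and 0.25. As folds of tumour over reference these are 3.66, 3.33, 2.72 and 2.91. The ratios spanned 0.43, and their mean was 1.65 ± 0.19 (SD, n = 4; 3.13-fold). Neighbours in the order 1, 2, 4, 3 differed by less than the error of a spot, while the ends, tumours 1 and 3, differed by more. On slide 1, which held tumours 1 and 4, the mean was 1.71, and it was 1.73 on slide 2 and 1.44 on slide 3. Without tumour 1 the mean was 1.57 ± 0.15 (SD, n = 3).

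The excess of a probe over the median of the 2 nearest probes on each side separates a change at 1 position from a change of the stretch. At the central probe it was 1.63, 1.48, 1.38 and 1.41 in tumours 1 to 4, with a mean of 1.47 ± 0.11 (SD, n = 4) and of 1.42 ± 0.05 without tumour 1 (SD, n = 3). The median of those 4 neighbours was 0.24, 0.26, 0.06 and 0.13. The highest other probe of the window reached 0.52 in tumour 1 and 0.55 in tumour 2, both at the first Afp probe, 0.33 in tumour 3 at 91110928 and 0.29 in tumour 4 at 90802589. The central probe thus exceeded each of the other 42 probes on each array. The last Alb probe ended 10855 bases before it and the first Afp probe began 8509 bases after it. A raised stretch at this place that reached neither could be of any length up to the 19424 bases between them, of which the probe samples 60. The ratio gives the amount of this sequence and not its place, so extra copies here and elsewhere in the genome cannot be told apart. Starts of neighbouring probes in the window lay 9431 bases apart in the median.

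**Figure D1:**
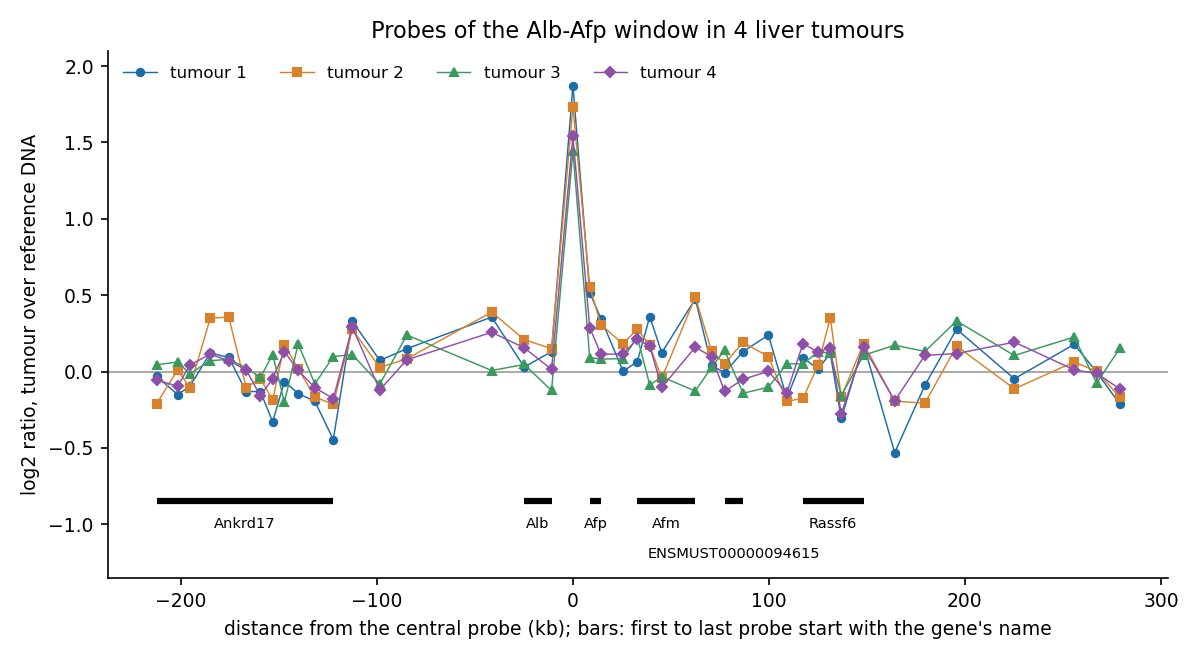
Log2 ratio of tumour over reference DNA (vertical axis) at the 43 probes of the Alb-Afp window by distance from the central probe in kb (horizontal axis), with a line and marker per tumour and black bars from the first to the last probe of each gene name. The central probe lies at 1.44 to 1.87 in the 4 tumours, and the highest value of any other probe is 0.55.

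The signals behind these ratios were read in each channel. After background and dye steps the processed red signal of tumour DNA at the central probe was 3614, 4214, 3722 and 3138 on the arrays of tumours 1 to 4, against a processed green signal of reference DNA of 1007, 1260, 1363 and 1067. Before these steps the mean signals were 4948, 2429, 2011 and 4412 in red and 791.0, 502.8, 257.8 and 695.0 in green. Red exceeded green on each of the 4 arrays, which restates the ratio by which the probe was chosen. Among 161427 autosomal probes its processed red signal lay at percentiles 99.6, 99.7, 99.7 and 99.4 in tumours 1 to 4. The green signal lay at percentiles 51.6, 67.5, 70.6 and 53.0. Probes differ in how strongly they bind DNA, so these percentiles do not show which channel departs at this probe. The probe was well above background in both channels and saturated in neither on each of the 4 arrays. As no array had the dyes swapped, a dye effect at this probe and a difference in DNA cannot be told apart.

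**Figure D2:**
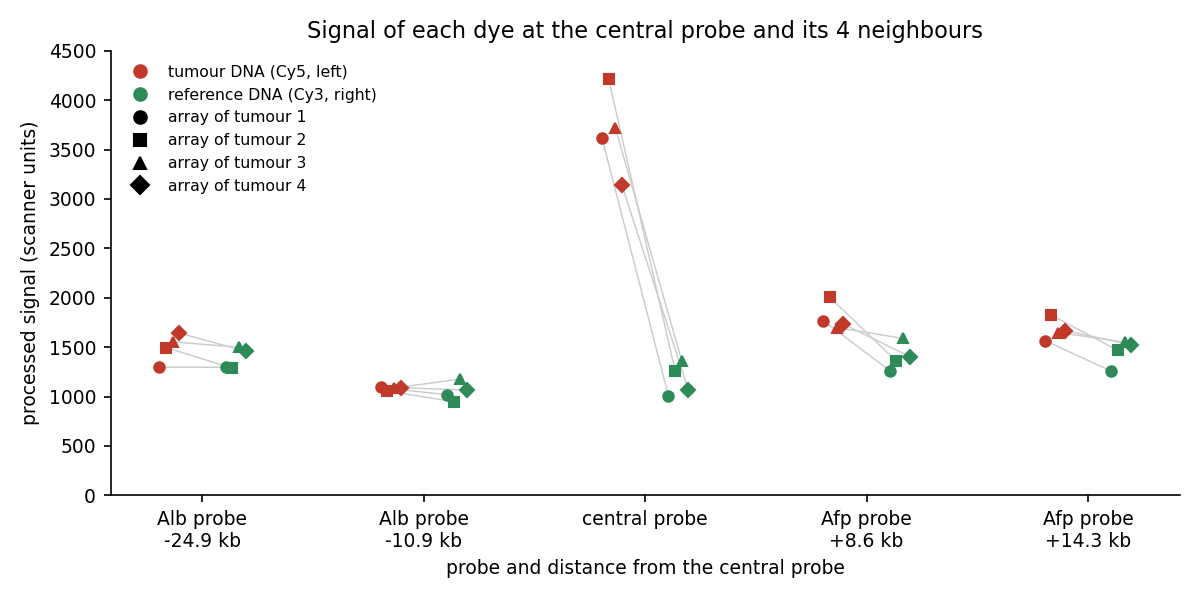
Processed signal in scanner units (vertical axis, from 0) at the central probe and its 4 neighbours, with tumour DNA in red on the left and reference DNA in green on the right of each pair, a marker shape per array and grey lines joining the channels of an array. At the central probe tumour DNA lies at 3138 to 4214 and reference DNA at 1007 to 1363, and channels are to be compared within a probe only.

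Afp was represented by 2 probes. The one nearer to the central probe, the first Afp probe, had log2 ratios of 0.52, 0.55, 0.09 and 0.29 in tumours 1 to 4, and the second had 0.35, 0.31, 0.08 and 0.11. Both were above 0 in all 4 tumours, with the higher values in tumours 1 and 2. The errors of these spots, 0.20 to 0.21 on every array, were larger than the ratios of both probes in tumour 3 and of the second in tumour 4. Their mean was 0.43, 0.43, 0.09 and 0.20, or 0.29 ± 0.17 over the tumours (SD, n = 4), and 0.24 ± 0.18 without tumour 1 (SD, n = 3). At the first Afp probe the processed signal of tumour DNA was 1768, 2003, 1698 and 1734, against 1261, 1356, 1588 and 1404 for reference DNA.

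Alb was represented by 2 probes as well. The first had 0.03, 0.21, 0.05 and 0.16 in tumours 1 to 4 and the second, nearest to the central probe on its left, had 0.13, 0.15, -0.12 and 0.01. Their mean was 0.08, 0.18, -0.04 and 0.09, or 0.08 ± 0.09 (SD, n = 4), which lies within the spread between tumours. Without tumour 1 it was 0.08 ± 0.11 (SD, n = 3). At the second Alb probe the processed signal of tumour DNA was 1093, 1056, 1085 and 1089 and that of reference DNA 1018, 947, 1178 and 1066. Tumour DNA was thus the higher on the arrays of tumours 1, 2 and 4 and the lower on that of tumour 3.

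Afm encodes afamin, a plasma protein that binds vitamin E and is the third member of the albumin family here. Its 4 probes averaged 0.26, 0.22, -0.01 and 0.11, with a mean of 0.15 ± 0.12 (SD, n = 4) and of 0.11 ± 0.11 without tumour 1 (SD, n = 3). The lowest and highest single Afm probes were 0.06 and 0.48 in tumour 1 and -0.13 and 0.23 in tumour 3. The probe that overlaps the Afm start had 0.06, 0.28, 0.23 and 0.21.

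Ankrd17, a gene of an ankyrin repeat protein, fills the left of the window with 12 probes at -0.13, -0.01, 0.03 and -0.02, a mean of -0.03 ± 0.07 (SD, n = 4) that was -0.0011 ± 0.03 without tumour 1 (SD, n = 3). Rassf6, of the Ras association domain family, lies to the right with 5 probes at 0.02, 0.05, 0.05 and 0.07 and a mean of 0.05 ± 0.02, or 0.06 ± 0.01 without tumour 1. The 2 probes named ENSMUST00000094615, a transcript name of the array design, averaged 0.02 ± 0.09 (0.01 ± 0.11 without tumour 1), and the 15 unnamed probes other than the central one 0.05 ± 0.03 (0.06 ± 0.03 without tumour 1). The gene means over the tumours run in the order Afp, Afm, Alb, Rassf6, ENSMUST00000094615 and Ankrd17. All were measured in the same tumours, so neighbours in this order were compared within each tumour. Afp lay above Afm in 4 of 4 tumours, by 0.18, 0.21, 0.09 and 0.09 (mean difference 0.14 ± 0.06, SD, n = 4). Afm lay above Alb in 4 of 4, by 0.07 ± 0.07, and Alb above Rassf6 in 3 of 4, by 0.03 ± 0.09. Rassf6 and ENSMUST00000094615 differed by 0.02 ± 0.11, and ENSMUST00000094615 and Ankrd17 by 0.06 ± 0.12, each with the first higher in 2 of 4. Every difference but that of Afp and Afm was smaller than its SD between tumours, and all are descriptions. The order was set by these same means, so no mean difference could fall below 0. The SD between tumours also leaves out the spread between the few probes of a gene.

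**Figure D3:**
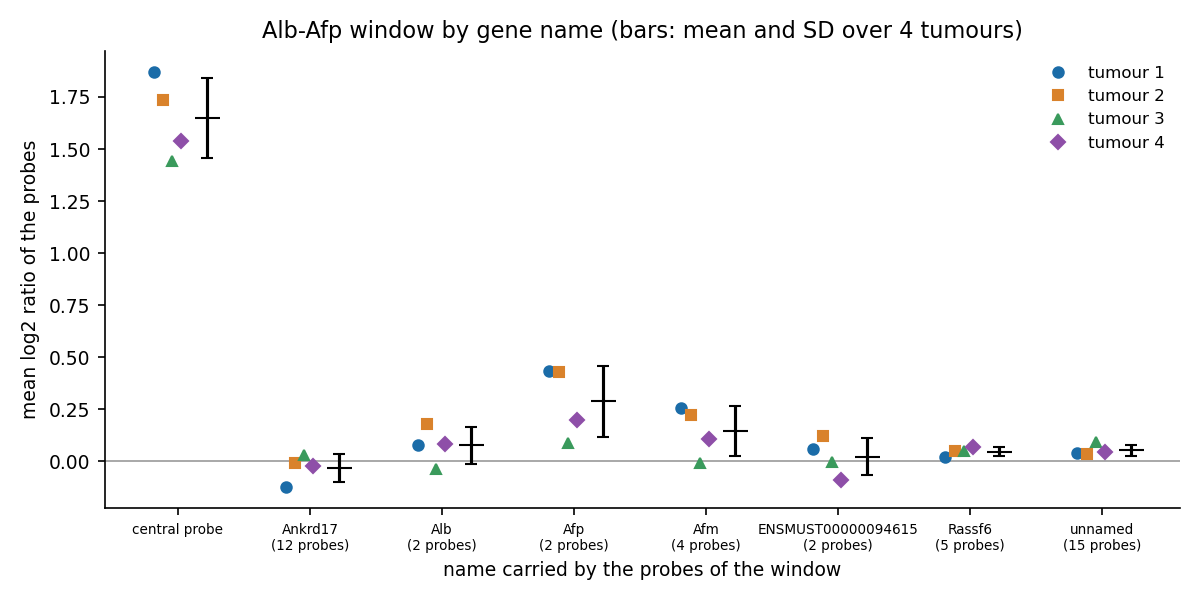
Mean log2 ratio of the probes that carry each name (vertical axis) for the central probe, the 6 gene names of the window in genome order and the 15 other unnamed probes (horizontal axis), with a marker per tumour and the mean with SD over 4 tumours in black. The central probe averages 1.65, Afp 0.29, Afm 0.15 and Alb 0.08.

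Without the central probe the locus lay near the reference level. The other 42 probes averaged 0.03 ± 0.04, 0.07 ± 0.03, 0.05 ± 0.02 and 0.04 ± 0.02 in tumours 1 to 4 (SE over probes), with a mean of 0.05 ± 0.02 (SD, n = 4), and of 0.05 without tumour 1. Chromosome 5 outside the window averaged 0.01, -0.03, -0.0044 and -0.03, with SDs over its 10130 probes of 0.28, 0.34, 0.19 and 0.20. The 16 other probes within 100 kb of the central one, which include those of Alb, Afp and Afm, averaged 0.19, 0.20, 0.02 and 0.08, or 0.12 ± 0.09 (SD, n = 4), and 0.10 ± 0.10 without tumour 1 (SD, n = 3). In tumours 1 and 2 the neighbourhood was thus higher than in tumours 3 and 4. The correlation of the ratio with probe GC over the autosomes, a description over probes that share their array, was 0.22, 0.13, -0.05 and 0.13. After GC correction these 16 probes were at 0.20, 0.21, 0.01 and 0.08.

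Of the 42 other probes, 26 had a mean above 0. All 4 tumours were above 0 at 16 of them (38.1%), against 17.6% of autosomal probes, and all 4 were below 0 at 3 of them (7.14%), against 18.1%. The edges of the window were set by position. The probes just inside averaged -0.06 on the left (Ankrd17, 90702713) and -0.09 on the right (91194209), and those just outside 0.12 (Ankrd17, 90689046) and 0.20 (91200734, no gene name).

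A probe was counted as raised or lowered when its log2 ratio was at least 0.5 (1.41-fold), or at most -0.5, in all 4 tumours. In the window 1 of 43 probes was raised (2.33%), the central one, whereas 36 of 161427 autosomal probes measured on all arrays were raised, which is 0.0223%. None of the 43 was lowered, against 455 autosomal probes or 0.282%. An excess over the neighbours of at least 0.5 in every tumour was found at 1 of 43 probes and at 34 of 161351, or 0.0211%. These counts use the ratios that chose the locus and describe it only. The count of 36 was 106 without tumour 3, and the 455 were 2194. Without 1 tumour a call needs fewer tumours past the threshold, so these counts cannot fall.

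Among all autosomal probes the lowest of the 4 ratios was highest at the central probe, at 1.44, and the next probe reached 1.12. Within single tumours it ranked 4, 3, 2 and 3 of 161427. By its mean it ranked 3, and by its lowest excess over neighbours 2 of 161351. The 36 raised probes lay on 9 chromosomes, with 14 on chromosome 1, 9 on chromosome 11 and 2 on chromosome 5. The other one on chromosome 5, at 39714016 and without a gene name, had 1.01, 0.98, 0.51 and 1.30. Some raised probes lay in groups. Those named BC013664 or EG214403 lay between 141582304 and 141678786 of chromosome 1, and those named Raet1a between 22006887 and 22042044 of chromosome 10. Those named AK038834 or Garnl4 lay between 74184906 and 74199333 of chromosome 11.

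**Figure D4:**
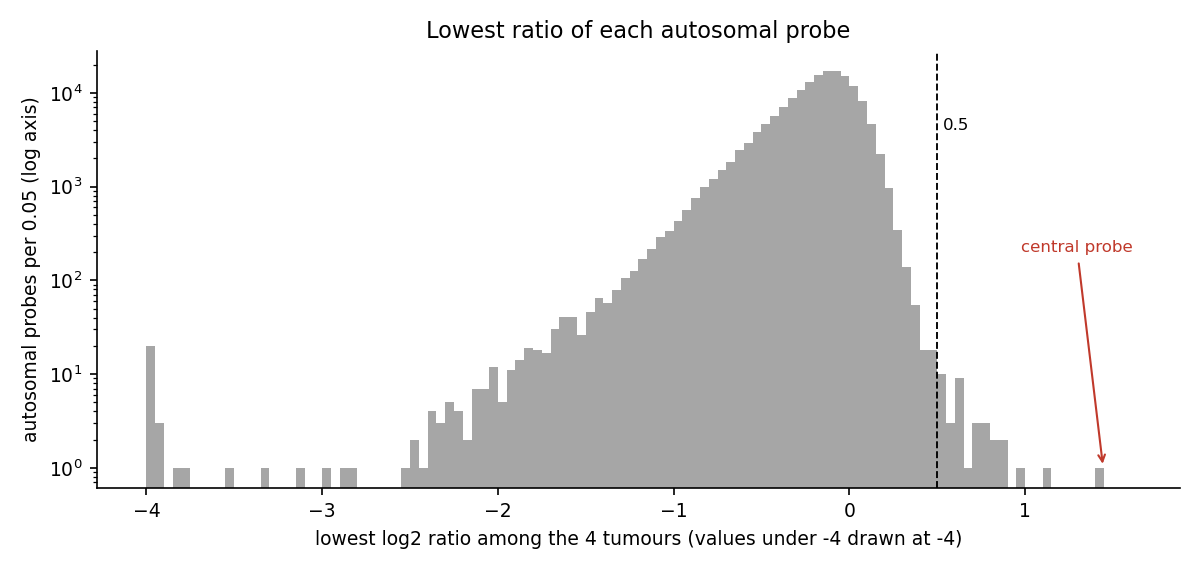
Number of autosomal probes (vertical axis, log scale) by the lowest log2 ratio among the 4 tumours (horizontal axis, values under -4 drawn at -4), with a dashed line at 0.5 and an arrow at the central probe of the Alb-Afp window. The central probe, at 1.44, is the highest of the 161427 probes.

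The probes whose 4 ratios were nearest to those of the central probe, by Euclidean distance over the 4 tumours, were an unnamed probe of chromosome 1 at 113952155 (distance 0.94), a Thsd7b probe of chromosome 1 (0.96), a Garnl4 probe of chromosome 11 (1.10) and a BC013664 probe of chromosome 1 (1.13). The unnamed probe had 1.29, 1.22, 1.14 and 1.12, below the central probe in each tumour. It was also isolated, with a lowest excess of 0.94. The Garnl4 and BC013664 probes lay in groups of raised probes, with lowest excesses of 0.35 and 0.14. Of single probes above their neighbours, DQ117583 on chromosome 11 had a larger lowest excess (2.24), but its own ratio averaged -2.41, so it lay below the reference level. Fam5c on chromosome 1, with a mean of 0.94 and a lowest excess of 1.05, was the 1 named probe among the 8 most isolated that lay above 0.5 in every tumour.

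A gene item, the mean over all probes from the first to the last of a gene's name with 50 kb on each side, takes in the central probe for all 3 of the neighbouring family members. The item of Alb (8 probes) averaged 0.36 ± 0.11 (SD, n = 4), and 0.18 ± 0.10 without the central probe. That of Afp (10 probes) averaged 0.31 ± 0.12, and 0.16 ± 0.11 without it. That of Afm (14 probes) averaged 0.21 ± 0.09, and 0.10 ± 0.09 without it. The central probe thus accounted for about as much of each of these 3 means as all their other probes together. Gc, the gene of the vitamin D binding protein and the more distant member of the family on chromosome 5, was at 0.03 ± 0.06 over 10 probes. Cxcl15, a chemokine gene beyond Rassf6, was at -0.01 ± 0.02 over 8 probes, and Pf4, Ppbp, Cxcl5, Cxcl3, Cxcl1 and Cxcl2 had no probe of their name.

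Copy number of genes known to act on Alb and Afp transcription was not used to choose the locus and was tested. With limma on the mean log2 ratio against 0 and Benjamini-Hochberg adjustment over 20795 gene items, 1 item was higher (0.00481%) and 8 were lower (0.0385%) at an adjusted p under 0.05, while 4269 (20.5%) had an unadjusted p under 0.05. Of 17 listed regulators 16 were measured, Cebpb being absent from the names. None of the 16 passed the adjusted threshold, and 4 (25%) had an unadjusted p under 0.05. That count was 0 without tumour 1, 0 without tumour 2, 5 without tumour 3 and 3 without tumour 4. Their median was 0.03, against -0.0047 over all items, with 11 above 0 and 5 below.

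Zhx2, a gene on chromosome 15 whose product is known as a postnatal repressor of Afp in mice, had the highest mean of the list. It was at 0.32, 0.37, 0.08 and 0.03 in tumours 1 to 4, a mean of 0.20 ± 0.07 (SE; limma adjusted p = 0.20), and of 0.16 without tumour 1. Foxa1, on chromosome 12, which encodes a pioneer factor of liver genes, had the lowest. It was at -0.31, -0.22, -0.07 and -0.01, a mean of -0.15 ± 0.06 (SE; limma adjusted p = 0.22), and of -0.10 without tumour 1. It was at 0.22 when only the probes between its own were used. Both were farthest from 0 in tumours 1 and 2. The level of the rest of their chromosomes was not set beside them, so a change of the gene and one of its chromosome were not told apart. Trp53 itself, on chromosome 11, was at 0.12, -0.04, -0.05 and 0.03 (limma adjusted p = 0.87). The deleted part of the gene is not given in the sources used here, so this does not check the genotype.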

How the data were processed

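Each array compared genomic DNA of 1 liver tumour with pooled reference DNA (4 tumours from 4 mice). The log10 ratios (red over green) that the authors deposited had been background-subtracted, spatially detrended and scaled between dyes, per the file headers. Processed and raw intensity values of both channels, local backgrounds and flags were also used as deposited. The submitters' processing notes name Agilent Feature Extraction 10.7.3.1, and positions are mm9 (NCBI 37) per the file headers. The deposited value table, on the log10 scale with column medians of -0.0011, 0.0018, 0.00056 and 0.0032, matched the array ratios within 0.5% at each of 180880 features, which settles its scale, centring and direction.

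Ratios were turned to log2. Control spots and outlier spots (93 to 126 per array) were left out, repeated spots were averaged, and the autosomal median of each array was set to 0, with no loess or quantile step. Gene items were tested with limma 3.58.1 in R 4.3.3 (moderated intercept, Benjamini-Hochberg under 0.05), and the fit was also run on simulated data. Those data had independent normal noise, so they do not give the error rate for items that share probes through their flanks. The test against 0 leaves out the spread of the reference, the pool may be shared between arrays, and 4 arrays limit the precision. The labels give the tumours separate mice but no other replicates, and replicate numbers follow accession order. Gene names are those of the array. Exons and introns are not given, as no mm9 annotation was used.

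The window, its members, the list of regulators and the naming rule were chosen with earlier results of these data known. Named were all gene names of the window, the albumin family, neighbouring chemokine genes, the extremes of the regulator list, and up to 8 probes nearest in ratio or most isolated; of those 8 only some are described. After seeing the values, Trp53 and the chromosome 5 probe at 39714016 were added. Alternatives were normexp background correction (offset 50), uncorrected signals, centring on the mode or on chromosome 5, the value table, GC correction, only probes well above background, other neighbours, windows, thresholds and flanks, and each tumour left out. Leaving the central probe out of the gene items was added after the data were seen.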

Additional observations from a re-analysis of the deposited data

How the results depend on the processing

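Of the 43 window probes 1, the central one, was raised and 0 were lowered under each alternative counted and without any 1 tumour. The central probe was chosen by these ratios, of which the lowest was 1.44. Its call therefore could not change without 1 tumour or at thresholds of 0.3 and 0.7. The mean of the central probe ranged from 1.59 to 2.14 over the alternatives and its excess from 1.43 to 1.85; both upper ends came from normexp correction, which also put the mean log2 ratio of the other 42 probes at 0.086. Without 1 tumour the mean was 1.57 to 1.72, the excess 1.42 to 1.50 and the mean of the other 42 probes 0.04 to 0.05. Within 100 kb the other probes were at 0.12. Over all autosomal probes, counts moved with the setting: raised and lowered probes numbered 213 and 868 under normexp, 266 and 1616 at a threshold of 0.3, and 13 and 269 at 0.7. They numbered 39 to 106 and 476 to 2194 without 1 tumour, with the upper ends without tumour 3. Fewer tumours are then needed for a call, so those counts cannot fall. Gene items called higher numbered 2 under normexp, GC correction, mode centring and chromosome 5 centring, 0 with no flank and 0 to 2 without 1 tumour (0 without tumour 2 or 4, 2 without tumour 3). Those called lower numbered 30 with no flank and 0 to 7 without 1 tumour (0 without tumour 2, 3 without tumour 4). None of the 16 regulators passed in any setting. Foxa1 ranged from -0.21 to 0.22 (limma adjusted p = 0.12 to 0.64), with the reversed value of 0.22 from items with no flank, which hold fewer probes, and Zhx2 from 0.14 to 0.28 (limma adjusted p = 0.14 to 0.63). Without the central probe, an alternative added after the data were seen, the items of Alb, Afp and Afm were at 0.18, 0.16 and 0.10. The cause of the other moves was not tested. The GC curve was fitted through the medians of probes of equal GC. With 1 spot per array at the central probe, 1 array per tumour and no dye swap, the precision rests on 4 ratios.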
